A study of Homo sapiens with 6 samples.

Results

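Integrin, collagen and laminin genes were followed in HepG2 cells treated with an extract (ESB in the labels) of *Scutellaria baicalensis*, a plant whose root is used in traditional medicine. HepG2 is a human hepatoma cell line that keeps many hepatocyte features. The members were taken by gene name from the array's own annotation: names made of ITGA or ITGB, COL or LAM and a chain number. The rule matched 84 of the 17483 genes with a usable probe. Of these, 78 encode integrin, collagen or laminin chains: 18 integrin α chains, 8 integrin β chains, 40 collagen chains and 12 laminin chains. The other 6 names, ITGB1BP1, ITGB1BP2, ITGB1BP3, ITGB3BP, ITGB4BP and ITGBL1, are not such chains and are left out of every count below.

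RNA was measured on 6 one-colour Agilent arrays, 1 of control HepG2 cells and 1 each after 1, 3, 6, 12 and 24 h with the extract at 100 µg/ml. With no replicates, differences at single times could not be tested. The control carries neither a time nor a vehicle in the labels, and every treated array was set against the same control array. A level here is log2 of a probe's processed signal minus the 75th percentile of its array, and a difference is the treated level minus the control level.

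Integrins are receptors of 1 α and 1 β chain that tie the cytoskeleton to the matrix outside the cell. Laminins are cross-shaped trimers of an α, a β and a γ chain, and collagens are trimers wound into a triple helix. Laminins and type IV collagen build the basement membrane, the sheet beneath epithelia, and integrins such as α6β1 and α6β4 bind laminin there. In liver, hepatocytes themselves rest on a sparse matrix, and most fibrillar collagen comes from stellate cells and fibroblasts.

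The probes that carry the main results are shown first. They are the ones whose values at 6, 12 and 24 h are described below, including several that target one gene and gave different answers. Coordinates are those written in the array files, whose genome build is not given in the sources used here. The COL7A1 probe, with 60 bases that span 188 bases of chr3:48577405-48577592 on the minus strand, and both upstream ITGB1 probes, chr10:33237405-33237464 and chr10:33240513-33240572 on the minus strand, are shown whole. The first 30 bases are shown of the other probes, which lie at chr10:33229449-33229508 on the minus strand (ITGB1, the most downstream probe), chr2:187370801-187370860 and chr2:187369600-187369659 on the plus strand (ITGAV), chr2:173196063-173196122 on the plus strand (ITGA6), chr1:179846063-179846122 on the plus strand (LAMC1) and chr6:116547754-116547813 on the minus strand (COL10A1).
ITGB1 A_32_P95397: gtcttactttgagttagtgccataacagac
ITGB1 A_23_P104193: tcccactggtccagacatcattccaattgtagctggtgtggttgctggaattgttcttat
ITGB1 A_23_P104199: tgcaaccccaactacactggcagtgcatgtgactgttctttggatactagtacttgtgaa
ITGAV A_23_P50907: aaagagtgattaagtgaggttatttacccc
ITGAV A_23_P381992: aaattacctttatgaaatatagttttgtat
ITGA6 A_23_P210176: atttctgtaaaacaggttataacagtgttt
LAMC1 A_23_P201628: accttaattacactcccgcaacacagccat
COL7A1 A_23_P144071: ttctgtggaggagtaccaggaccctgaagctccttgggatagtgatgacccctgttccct
COL10A1 A_23_P214144: atacagatttgagctatcagaccaacaaac

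The arrays differed in brightness, which bears on every result at 6 and 12 h. On the control array 75% of probes lay at or below a processed signal of 693 units, and that level was 983, 1700, 139, 374 and 1460 units after 1, 3, 6, 12 and 24 h of extract. The share of probes well above background lay between 49.5% at 6 h and 73.2% at 3 h. After scaling, the median difference of all measured genes was still 0.34 at 6 h and 0.23 at 12 h. At the other times it lay between -0.06 and 0.02. Pairs of probes for one gene gave the error of a single log2 difference, as an SD. This SD was 0.35, 0.44, 0.78, 0.68 and 0.69 at 1, 3, 6, 12 and 24 h, and it holds no spread between cultures or arrays. All 9 hepatocyte markers were well above background on all 6 arrays. Of the 8 fibroblast and stellate markers, THY1, ACTA2 and TAGLN were on all 6 arrays, PDGFRB on 5, PDGFRA on 4, DCN on 2, and LUM and POSTN on none. Of the 5 endothelial markers, VWF was on all 6 arrays, PECAM1 on 4, and CDH5, KDR and TEK on none. The 5 haematopoietic markers were each above background on at least 1 array, PTPRC, the common leukocyte marker, on 1 alone. All samples are labelled as HepG2 cells, and whether any other cell type was present was not tested. In such bulk RNA, fewer cells of a type and less RNA per cell cannot be told apart.

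Of the 78 chains, 39 were well above background on all 6 arrays, 19 on some and 20 on none. The 39 were 14 of 26 integrin chains, 18 of 40 collagens and 7 of 12 laminins. Per array, 52 chains were well above background in the control, and 51, 52, 40, 47 and 54 at 1, 3, 6, 12 and 24 h, so the 6 h array held the fewest. The 20 chains on no array were COL1A1, COL3A1, COL4A4, COL5A1, COL5A3, COL8A1, COL12A1, COL13A1, COL15A1, COL17A1, COL19A1, COL21A1, COL22A1, COL25A1, ITGA4, ITGAD, ITGB3, LAMA2, LAMA4 and LAMB4. They include COL1A1 and COL3A1, the main chains of the fibrillar collagens of scar tissue, and COL1A2 was above background at 24 h alone. The basement membrane chains COL4A1, COL4A2, COL4A5, COL4A6, LAMA3, LAMA5, LAMB1, LAMB2 and LAMC1 were well above background on all arrays.

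Few chains differed from the control in the first hours, and more did at 6 and 12 h, on the dim arrays. A chain was counted at a time when its probe was well above background and unsaturated on both arrays. At 1 h, 1 of 50 measured chains was at least 2-fold higher and 0 lower, beside 2.24% higher and 0.663% lower among all measured genes. The figures at 3 h were 1 higher and 1 lower of 49 chains, beside 3.24% and 2.96% of all genes. At 6 h, 12 of 39 chains were higher and 2 lower, beside 22.9% and 10.0% of all genes. At 12 h, 7 of 46 chains were higher and 2 lower, beside 13.1% and 7.81%. At 24 h, 2 of 50 chains were higher and 4 lower, beside 7.29% and 9.29%. With counts this small, the chains lay close to the background share at most times with this scaling. With normexp background correction, 18 of 39 chains were higher at 6 h and 17 of 46 at 12 h. The shares of all genes were then 20.8% and 19.7%. After centring on the median of measured genes, 11 of 39 were higher at 6 h, beside 12.6% of all genes. With quantile normalization, 7 of 39 were higher at 6 h, beside 14.5%.

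The medians of the 3 families are given beside that of all measured genes, with no test between them. At 6 h the median laminin was 1.21 above the control and the median collagen 0.69, against 0.34 for all measured genes, while the median integrin was at 0.13. The laminin median at 6 h, over 7 chains, is the value of LAMB1, which depended on the scaling. LAMB1 was at 0.43 with quantile normalization and -0.39 with normexp. With normexp LAMB2 was at 0.02 at 6 h, while LAMB3 and LAMC3 were at 2.28 and 2.44. At 12 h the medians were 0.76 for laminins, 0.35 for collagens, 0.10 for integrins and 0.23 for all genes. At 24 h the medians were 0.20 for laminins, -0.39 for collagens and -0.31 for integrins, against 0.02 for all genes. At 24 h, 17 of 21 measured collagens were below the control, and 6 of 9 laminins were above it, beside 6312 of 13039 genes below and 6727 above.

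**Figure D1:**
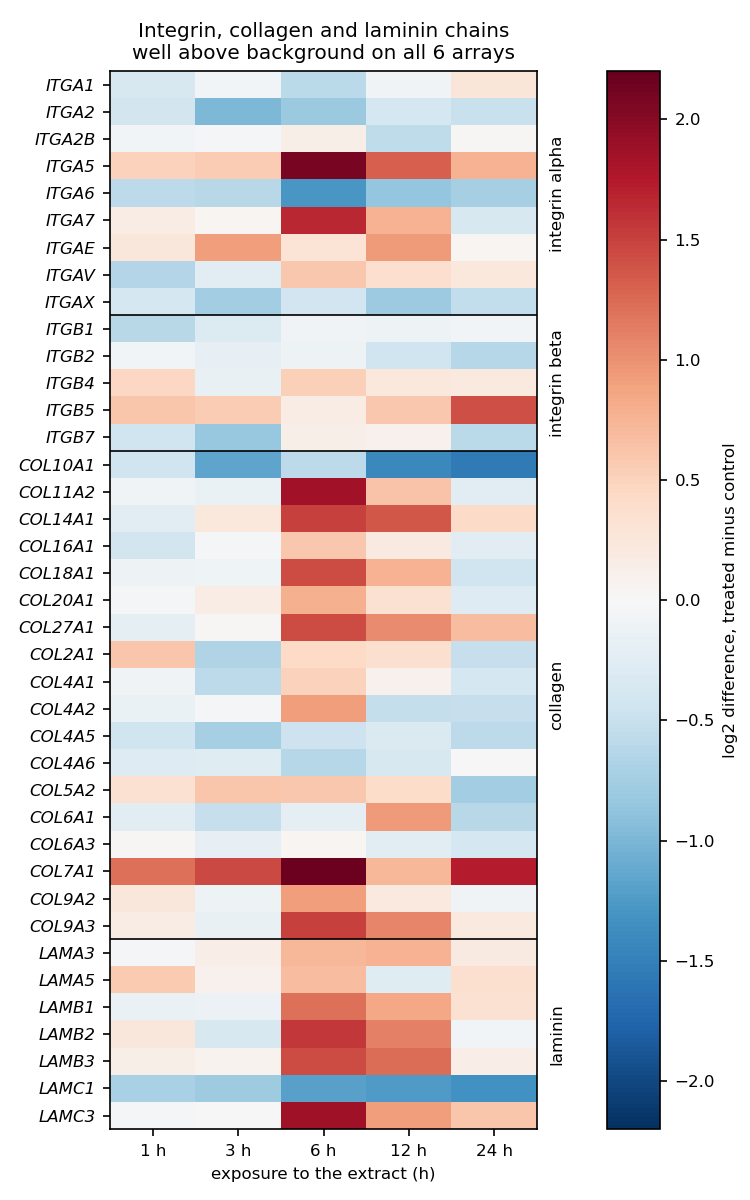
Log2 difference of treated minus control (colour) at 1, 3, 6, 12 and 24 h (columns) for the 39 chains well above background on all 6 arrays (rows, by family); 1 array per time. The 6 h column holds the most red, COL7A1 is red in every column, and LAMC1, ITGA6 and COL10A1 are blue in every column.

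LAMC1, the γ1 chain found in most laminin trimers, was lower than the control at each of the 5 times. Its level was 1.94 in the control and 1.23, 1.16, 0.75, 0.69 and 0.60 at 1, 3, 6, 12 and 24 h. Its differences were -0.71 ± 0.35, -0.78 ± 0.44, -1.19 ± 0.78, -1.25 ± 0.68 and -1.34 ± 0.69 (SD of a single probe). All 5 treated arrays lay below the control. The difference was at least 2-fold at 6, 12 and 24 h under each of the 6 processing settings that kept the filter on dim probes. These 6 count the main setting and the mean over probes. Each of them scales the arrays by their 75th percentiles, 139 units at 6 h and 693 units in the control, so their agreement does not check that step. The probes of LAMB3, ITGA5 and COL11A2 lie far below the 75th percentile, and their differences at 6 h lean on this scaling. LAMC1, LAMB3, ITGA5 and COL11A2 have 1 probe each, so for them the mean over probes repeats the main value and is no separate check. The 5 differences of LAMC1 share the control array, so they are not independent of each other. Of the 39 chains measured at all 5 times, 9 were lower at every time and 5 higher. Among 10385 genes measured at all 5 times, 12.0% were lower at every time and 18.0% higher.

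The other laminin chains did not follow LAMC1. LAMB1 and LAMB2, the β chains that join γ1 in many trimers, had differences of 1.21 and 1.55 at 6 h and of 0.86 and 1.10 at 12 h. Both probes are bright, and their differences depended on the scaling: with quantile normalization the 6 h differences were 0.43 for LAMB1 and 0.87 for LAMB2, and with normexp background correction -0.39 and 0.02. LAMB3, a chain of laminin-332, which anchors epidermis, was more even across settings. Its level was -3.22 in the control and -3.08, -3.15, -1.79, -1.99 and -3.07 at 1, 3, 6, 12 and 24 h. Its differences were 1.43 ± 0.78 at 6 h and 1.23 ± 0.68 at 12 h, at least 2-fold under all 6 settings, and within 0.15 of 0 at the other times. LAMA3, the α chain of that trimer, had differences of 0.73 at 6 h and 0.76 at 12 h. LAMC3, a γ chain, was 1.87 ± 0.78 above the control at 6 h and 0.93 at 12 h. LAMA5, the α chain of most adult basement membranes, lay between -0.27 and 0.68.

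Among integrin α chains, ITGA6 and ITGA5 lay on opposite sides of the control. ITGA6, the laminin-binding α6 chain, had a level of 2.39 in the control and of 1.82, 1.77, 1.10, 1.53 and 1.65 at 1, 3, 6, 12 and 24 h. All 5 treated arrays lay below the control, with differences of -0.57 ± 0.35, -0.62 ± 0.44, -1.29 ± 0.78, -0.86 ± 0.68 and -0.74 ± 0.69. ITGA5, which forms the classical fibronectin receptor with β1, had a level of -4.23 in the control and of -3.73, -3.67, -2.14, -2.92 and -3.47 at the 5 times. Its differences were 0.50, 0.57, 2.09 ± 0.78, 1.31 ± 0.68 and 0.76. All 5 treated arrays lay above the control, although the 3 h difference was -0.02 with normexp. The 6 h and 12 h differences were at least 2-fold under all 6 settings, which share the scaling by 75th percentiles. The probe is dim, so its 6 h difference leans on percentiles of 139 units at 6 h and 693 units in the control.

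The collagen-binding and remaining α chains varied by chain, time and probe, and ITGA7, ITGA3 and ITGA9 passed 2-fold at some time by their brightest probes. ITGA1, the α1 chain of a collagen receptor, lay between -0.59 at 6 h and 0.27 at 24 h. ITGA2, another collagen-binding chain, was at -0.98 at 3 h and between -0.81 and -0.39 at the other times by its brightest probe, whereas its second probe was at -3.17 at 12 h and -1.41 at 24 h. ITGA7, a laminin-binding chain known from muscle, was 1.66 ± 0.78 above the control at 6 h and -0.36 at 24 h. ITGA3, another laminin-binding chain, had differences of 1.44 ± 0.68 at 12 h and 0.05 at 24 h, but was not well above background at 1, 3 and 6 h. With the authors' values its 12 h difference was 0.98. ITGA9 was at -1.16 ± 0.69 at 24 h, but at -0.90 with quantile normalization and -0.80 with normexp. The leukocyte chain ITGAX lay between -0.80 and -0.39.

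Among β chains, ITGB5 had the highest difference at 24 h. ITGB5, which pairs with αV in a vitronectin receptor, had a level of 2.06 in the control and of 2.66, 2.61, 2.22, 2.65 and 3.48 at 1, 3, 6, 12 and 24 h. The 24 h difference of 1.43 ± 0.69 was its largest, and all 5 treated arrays lay above the control. At 6 h, however, the difference of 0.17 turned to -0.14 with quantile normalization, -0.98 with normexp and -0.18 after centring on the median of measured genes. ITGB4, which pairs only with α6, lay between -0.16 and 0.53. ITGB2, the common β chain of leukocyte integrins, lay between -0.62 at 24 h and -0.06 at 1 h.

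**Figure D2:**
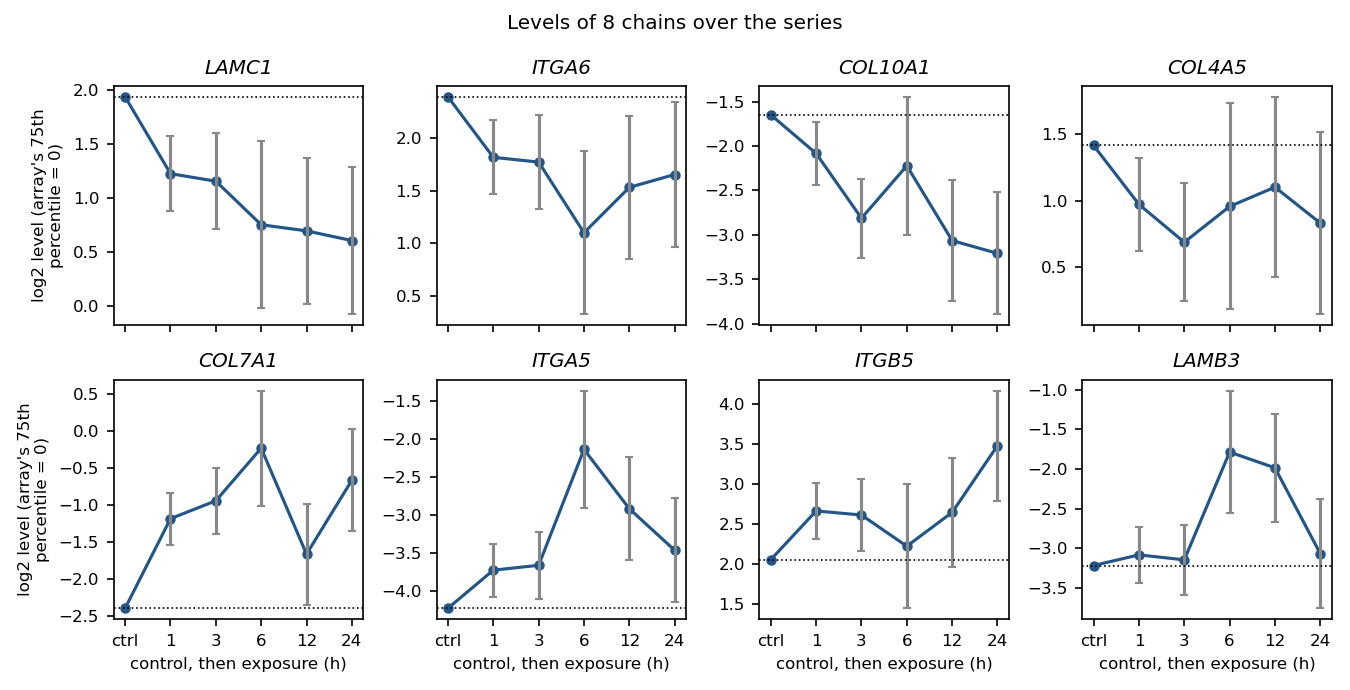
Level (log2 of the processed signal, with the array's 75th percentile at 0) on the control array and at 1, 3, 6, 12 and 24 h for 8 chains; points are single arrays, the dotted line is the control and grey bars are the single-probe SD (0.35 to 0.78). LAMC1, ITGA6, COL10A1 and COL4A5 lie below the dotted line at every time, and COL7A1, ITGA5, ITGB5 and LAMB3 above it.

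ITGB1, the β1 chain shared by most matrix-binding integrins, gave a different answer by probe. The brightest probe, A_32_P95397, had levels of 5.32 in the control and of 4.70, 5.01, 5.24, 5.21 and 5.25 at 1, 3, 6, 12 and 24 h, so all differences were between -0.62 and -0.07. They depended on the scaling: at 6 h the difference was -0.80 with quantile normalization and -1.66 with normexp, and at 12 h -0.59 and -0.53. Its processed signal was 27600 units in the control and 25500, 54700, 5260, 13800 and 55500 units at the 5 times, without a saturation mark. The other 3 probes were lower at 6 and 12 h and higher at 24 h, and with quantile normalization A_23_P104193 was at -1.53 and A_24_P598836 at -1.79 at 6 h.

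A_23_P104193 had levels of 2.71 in the control and of 2.54, 2.92, 1.47, 1.52 and 3.90 at 1, 3, 6, 12 and 24 h. Its differences were -1.25 ± 0.78 at 6 h and 1.19 ± 0.69 at 24 h. A_23_P104199, read from 9 or 10 spots an array, had levels of 0.53 in the control and of 0.29, 0.61, -1.49, -1.58 and 1.64. Its differences at 6, 12 and 24 h were -2.02, -2.12 and 1.11, and the SD between its spots within an array, which holds no spread between cultures, was 0.04 to 0.27 in log2 signal. A_24_P598836, which the files place on a chromosome other than that of ITGB1, was at -1.53 at 6 h and 1.02 at 24 h. By the files' coordinates A_23_P104193 and A_23_P104199 lie 7956 and 11064 bases upstream of A_32_P95397. Whether the probes read different transcripts was not tested, and the mean over the 4 probes was 0.81 at 24 h.

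ITGAV, the αV chain of RGD-binding integrins, showed a similar split. A_23_P50907, the brighter probe, was at -0.65, -0.22, 0.60, 0.36 and 0.24 at 1, 3, 6, 12 and 24 h. A_23_P381992, 1201 bases upstream, was at -0.33, -0.07, -2.18 and -0.22 at 1, 3, 12 and 24 h, and was not well above background at 6 h. Over all genes with an upstream and a downstream probe, the upstream one was a median of 0.20, 0.27, -0.13, -0.08 and 0.30 above the downstream one at 1, 3, 6, 12 and 24 h. At 12 h the quartiles over those genes were -0.61 and 0.53. With quantile normalization the ITGAV split at 12 h remained, with A_23_P50907 at 0.04 and A_23_P381992 at -2.28. At 6 h only the brighter probe was measured, and it depended on the scaling. It was at 0.13 with quantile normalization and -0.77 with normexp.

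**Figure D3:**
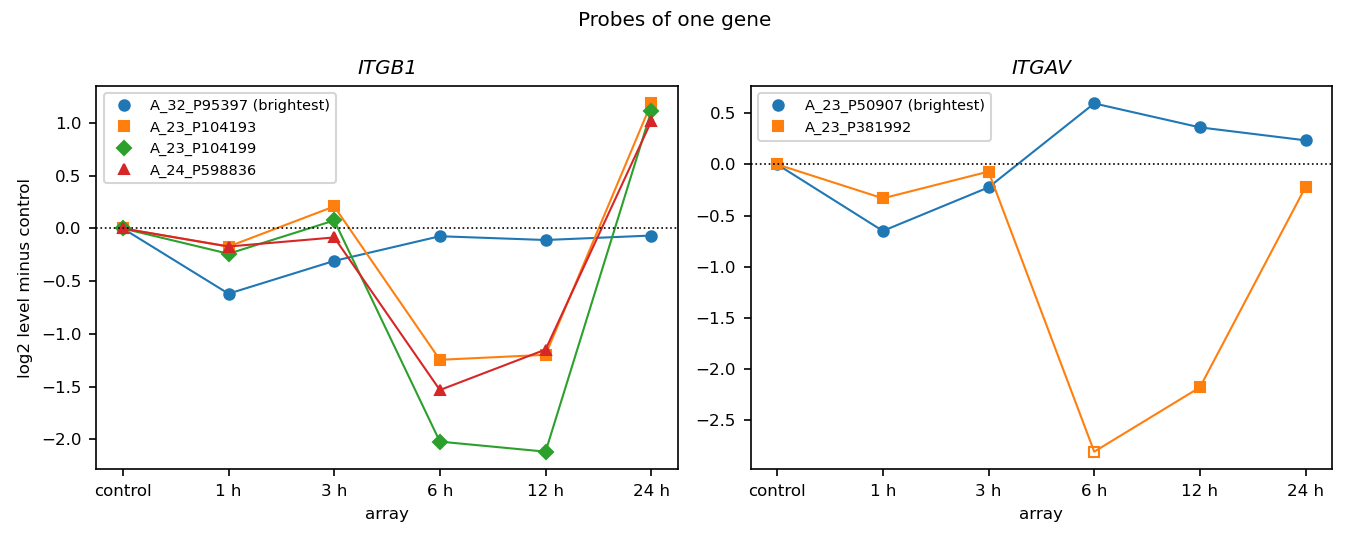
Level minus the control level (log2) on the 6 arrays for the 4 probes of ITGB1 (left) and the 2 probes of ITGAV (right); filled points are well above background, open points are not. The brightest ITGB1 probe stays between -0.62 and 0, while the other 3 dip at 6 and 12 h and exceed 1 at 24 h.

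Type IV collagen, the network collagen of basement membranes, was within 2-fold of the control at every time by the brightest probe of each chain measured, but not with normexp. With normexp COL4A1 was at 2.15 at 6 h and 1.06 at 12 h, COL4A2 at 1.44 at 6 h and COL4A5 at -1.13 at 6 h. The second COL4A1 probe was above background at 12 h alone. COL4A1 had levels of -3.07 in the control and of -3.15, -3.64, -2.56, -2.96 and -3.46 at 1, 3, 6, 12 and 24 h. COL4A2, its partner in the α1α1α2 trimer, had levels of -2.08 in the control and of -2.22, -2.10, -1.16, -2.61 and -2.59. The differences of COL4A1 were -0.08, -0.58, 0.50, 0.10 and -0.39, and those of COL4A2 -0.14, -0.02, 0.91, -0.53 and -0.51. The difference of COL4A1 minus that of COL4A2 lay between -0.55 at 3 h and 0.63 at 12 h, beside a single-probe SD of 0.44 and 0.68 at those times.

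Both genes start from one short stretch and run in opposite directions, so the sequence between their starts is shown. RefSeq (GRCh38.p14) puts 126 bases between the starts, at chr13:110307158-110307283, read here on the plus strand, the strand of COL4A2. Capitals mark the matches to CCAAT (or ATTGG) and GGGCGG (or CCGCCC), searched on both strands.
COL4A1 and COL4A2: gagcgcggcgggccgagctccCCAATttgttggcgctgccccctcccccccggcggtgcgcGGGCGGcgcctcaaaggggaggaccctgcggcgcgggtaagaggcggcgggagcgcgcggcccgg
CCAAT matched 1 time, GGGCGG 1 time and TATAAA (or TTTATA) 0 times. Among the 126 bases before each of 35116 RefSeq starts, 21.1% held CCAAT, 34.6% GGGCGG and 5.87% TATAAA on either strand.

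COL4A5 and COL4A6, neighbours of the same head-to-head kind on the X chromosome and mutated in Alport syndrome and its variants, were below the control at each time by their brightest probes. COL4A5 was at -0.44, -0.73, -0.46, -0.31 and -0.58 at 1, 3, 6, 12 and 24 h, and COL4A6 at -0.28, -0.27, -0.64, -0.36 and -0.01. With normexp COL4A6 was at 0.39 at 6 h. Other probes of COL4A5 lay up to 0.77 above the control at 6 h and 0.29 at 24 h. COL4A3, a chain of the kidney glomerulus, was measured at 1 h only, at -0.26, and COL4A4 was on no array.

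COL7A1, the chain of the anchoring fibrils that fasten basement membranes to the tissue below, was highest above the control at 1, 3, 6 and 24 h among the chains measured on both arrays, which leaves out those with only a bound. Its level was -2.39 in the control and -1.19, -0.95, -0.24, -1.66 and -0.67 at 1, 3, 6, 12 and 24 h. All 5 treated arrays lay above the control, by 1.21 ± 0.35, 1.45 ± 0.44, 2.16 ± 0.78, 0.73 ± 0.68 and 1.72 ± 0.69. Being higher at all 5 times was shared by 18.0% of all genes measured at every time. With normexp the 1 h and 3 h differences were 0.74 and 0.85, below 2-fold.

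COL10A1, known from hypertrophic cartilage, was the collagen lowest below the control at 3, 12 and 24 h by brightest probes. The second probes of COL5A2, at -1.42 at 12 h and -2.15 at 24 h, and of COL14A1, at -1.75 at 24 h, were as low or lower. Its level was -1.65 in the control and -2.08, -2.81, -2.22, -3.06 and -3.21 at 1, 3, 6, 12 and 24 h. Its differences were -0.43, -1.16 ± 0.44, -0.57, -1.42 ± 0.68 and -1.56 ± 0.69. All 5 treated arrays lay below the control, but with normexp the 6 h difference was 1.20 and the 12 h difference 0.08. COL8A2, a network collagen, was at -1.12 ± 0.69 at 24 h, but at -0.78 with quantile normalization and -0.73 with normexp.

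Several collagens were higher at 6 or 12 h alone, and the bright ones among them depended on the scaling. At 6 h and 12 h the differences were 1.50 and 1.08 for COL9A3, of a collagen on cartilage fibrils. They were 1.44 and 0.76 for COL18A1, the source of endostatin, and 1.43 and 1.04 for the fibrillar COL27A1. With quantile normalization the same 6 h differences were 0.36, 0.49 and 0.66, and with normexp -0.20, -0.19 and -0.16. The direction of these 3 genes and of LAMB1 at 6 h therefore changed with the background correction. COL11A2, a fibrillar chain of cartilage, had levels of -3.61 in the control and of -1.76 at 6 h, a difference of 1.86 ± 0.78 that was at least 2-fold under all 6 settings. COL14A1, which decorates fibrils in soft tissue, had differences of 1.51 at 6 h and 1.37 at 12 h, whereas its second measured probe was at 0.30 and -0.63, and at -1.75 at 24 h. Among the fibroblast and stellate markers, read here in a single cell line, 2 of 4 measured differed by 2-fold or more upward at 6 h, beside 22.9% of all genes. PDGFRA, 1 of the 2, was dim, at 38.9 units at 6 h against 23.9 units in the control. The part of these markers in the collagen values was not tested.

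**Figure D4:**
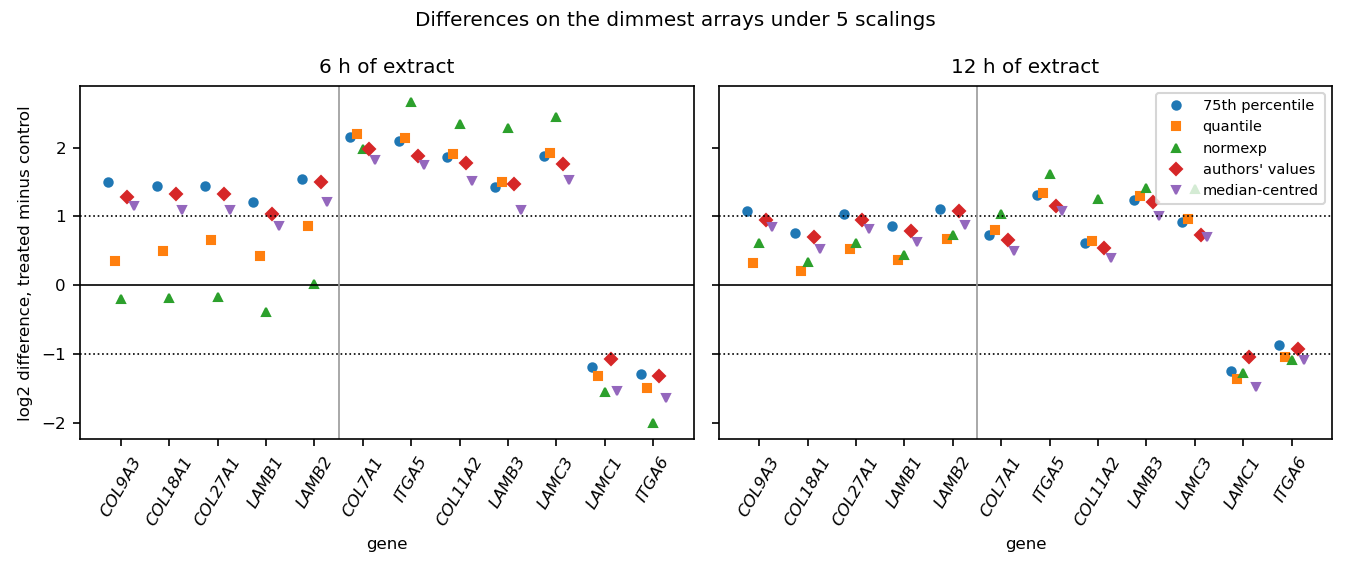
Log2 difference of treated minus control at 6 h (left) and 12 h (right) for 12 chains under 5 scalings (symbols); dotted lines mark 2-fold and the grey line separates 5 bright probes from the others. The 5 bright probes on the left spread between -0.39 and 1.55 at 6 h, while ITGA5, LAMB3 and LAMC1 stay past 2-fold in both panels.

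Some chains were not well above background on one of the 2 arrays compared, and only a bound can be given. The bound sets the brighter array against the lowest signal well above background on the dimmer one, or the probe's own signal there where that was higher. COL11A1 was at least 9.97-fold higher at 6 h than in the control, at 23.8 units against 2.89 units. The lowest signal well above background in the control was 11.9 units. The bound therefore leans on the scaling, by 75th percentiles of 139 units at 6 h and 693 units in the control. At 3 h the bound was 1.04-fold, and COL11A1 was not well above background at 1, 12 and 24 h. ITGB8, the β8 chain that pairs with αV, was at least 3.97-fold higher at 3 h, at 116 units against 2.92 units, and was above background at no other time. COL6A2, a chain of the microfibrillar type VI collagen, was at least 2.54-fold higher at 12 h and at least 2.37-fold higher at 24 h. COL24A1 was at least 2.60-fold lower at 24 h.

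A line of level against log2(hours + 1) was fitted with limma for each gene, with the control at 0 h by assumption. Of 51 chains tested, 0 had a trend after Benjamini-Hochberg adjustment over all 13611 genes, where 0% of genes did and the smallest adjusted p was 0.242. At an unadjusted p under 0.05, 5 chains had a trend, beside 9.9% of all genes. That count was 1 without the control array, 3 without 1 h, 8 without 6 h and 9 without 24 h. COL6A2 had a positive slope and COL10A1, LAMC1, ITGA9 and ITGA10 negative ones, and none of the 5 passed the adjusted test. The fitted change over 24 h was -1.48 ± 0.45 (SE) for COL10A1 (limma adjusted p = 0.375) and -1.26 ± 0.40 for LAMC1 (limma adjusted p = 0.394).

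The partners of these chains were read from 5 lists. Of the 16 basement membrane partners, 2 of 10 measured were at least 2-fold higher and 2 lower at 12 h, beside 13.1% and 7.81% of all genes. None of the 10 was 2-fold apart at 24 h. DAG1, the dystroglycan receptor for laminin, was at 1.15, 1.14, -0.36, 0.39 and 0.87 at 1, 3, 6, 12 and 24 h, and the mean over its probes at 24 h was 0.12. SPARC, a collagen-binding glycoprotein, was at -0.29, -0.65, -0.35, -0.29 and -0.64. Of the 22 measured collagen processing genes, 0 were higher and 3 lower at 24 h, beside 7.29% and 9.29% of all genes. They included COLGALT2, a collagen galactosyltransferase, at -2.72 at 12 h and -1.77 at 24 h, and LOXL1, which crosslinks elastin and collagen, at -1.34 at 24 h.

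Integrin adaptors link the receptors' tails to actin. Of 22 measured, 0 were at least 2-fold higher and 5 lower at 6 h, beside 22.9% and 10.0% of all genes. At 24 h, 4 were higher and 1 lower, beside 7.29% and 9.29%. FLNA, the actin crosslinker filamin A, was at 1.15, 0.71, 0.42, 0.59 and 1.48 at 1, 3, 6, 12 and 24 h. PXN, the adaptor paxillin, had a 24 h difference of -1.21 by its brightest probe, whereas the mean over its probes was 0.14.

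Among matrix proteases and inhibitors, 2 of 13 measured were higher and 1 lower at 24 h, beside 7.29% and 9.29% of all genes. MMP11, stromelysin-3, was at -0.38, -0.26, -1.50, -1.81 and -1.45 at the 5 times. Of 15 measured matrix glycoproteins, 1 was higher and 1 lower at 24 h, beside the same shares. They were COMP, a cartilage matrix protein, at 1.14, and THBS1, thrombospondin-1, at -1.44 (its brightest probe; the mean over its probes was -0.60).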

How the data were processed

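Gene expression was measured in 6 samples of HepG2 cells, 1 array per group. Per the labels' protocols, an RNeasy kit was used for purification and an Agilent linear amplification kit for labelling. Cy5 is the dye in the labels, but only green-channel columns are present in the scanner output. Per the file headers, each spot has several intensity columns, including a processed signal corrected for background. The authors' deposited value table holds unscaled intensity for 35646 probes and equalled the median signal minus the local background within 0.51 units. The scanner software's version is not given in the sources used here.

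From the deposited intensity, log2 of the processed signal minus each array's 75th percentile was computed, after leaving out 1639 control spots and 105 of 41000 probes flagged as outliers. A member was named by the files' gene name and another gene by its RefSeq symbol, and the probe with the highest mean level stood for a gene. The number of arrays limited the precision. The median SD between the 10 spots of 264 repeated probes was 0.07 to 0.12. R 4.3.3 with limma 3.58.1 and pandas 2.3.3 were used. The trend test was tested on simulated data, with 50 genes given a change of each size. It recovered 0 of 50 at 2-fold, 6 at 4-fold, 18 at 8-fold and 38 at 32-fold.

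The members and lists were chosen with earlier results of these data known. Genes were named by rule: chains at least 2-fold apart in one direction at 2 neighbouring times, the 3 brightest of each family, a fixed set (COL4A1 to COL4A6, ITGA1, ITGA5, ITGAV, ITGB1, LAMB1, LAMC1), 2 partners per list with the largest 24 h difference, and chains on no array by name. A gene that the rule names is not reported here. The other chains past 2-fold, those with bounds or with a trend at an unadjusted p, ITGB2, ITGB4, ITGA2, ITGAX, LAMA3 and LAMA5 and the probe pairs were chosen after their values were seen. Alternatives were quantile normalization, normexp (offset 50), the authors' values, centring on the median of measured genes, the mean over probes and no filter on dim probes.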

Additional observations from a re-analysis of the deposited data

Results flagged for a closer look

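Among the 127 probes of the integrin, collagen and laminin chains, not all of them measured, 3 were at least 2-fold below the control at one time and at least 2-fold above it at another. All 3 carry the gene name ITGB1. The share of all array probes that did so was not computed, so the count cannot be read as particular to ITGB1. Each pair of values below rests on 1 array per time and the same control array, and the difference between the times was not tested. A_23_P104193 had a log2 difference of -1.25 at 6 h and 1.19 at 24 h. A_23_P104199 was at -2.12 at 12 h and 1.11 at 24 h. A_24_P598836 was at -1.53 at 6 h and 1.02 at 24 h. The array annotation places that probe on a chromosome other than that of ITGB1, and whether it reads another gene was not tested. The brightest ITGB1 probe lay between -0.62 and -0.07 at all 5 times with the scaling by the 75th percentile. At 6 h it was at -0.80 with quantile normalization and -1.66 with normexp, so the split at that time depends on the scaling. Signal was lowest on the arrays of 6 and 12 h, and the part of this in the split was not tested.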

How the results depend on the processing

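Quantile normalization gave 2 of 49 chains at least 2-fold lower at 3 h (3.19% of all genes) and 7 of 39 higher at 6 h (14.5%). It also gave 4 of 46 higher at 12 h (8.42%) and 2 of 50 lower at 24 h (8.01%). With normexp, 0 of 50 were higher at 1 h (0.846% of all genes). At 3 h, 0 of 49 were higher and 2 lower with normexp (1.27% and 2.65%). At 6 h, 18 of 39 were higher (20.8% of all genes) and 4 lower (17.0%) with normexp. At 12 h, 17 of 46 were higher (19.7% of all genes), and at 24 h 2 of 50 were lower (6.9%). The authors' deposited values gave 4 higher at 12 h (9.76%). Centring gave 11 of 39 higher at 6 h (12.6% of all genes). Centring also gave 4 higher and 4 lower at 12 h (6.91% and 11.6% of all genes). The mean over probes gave 4 of 46 lower at 12 h (7.54% of all genes). Dropping the filter on dim probes added chains that were not measured. It gave 2 of 78 lower at 1 h (2.53% of all genes), and 6 higher and 3 lower at 3 h (6.04% and 4.04%). At 6 h it gave 37 of 78 higher and 4 lower (35.3% and 10.3%). At 12 h it gave 12 higher and 7 lower (14.4% and 8.13%), and at 24 h 7 higher and 8 lower (7.86% and 10.2%). The cause of the other changes was not tested. Of 174 values of 29 named genes at 24 h, 161 kept their sign and lay within the error of 0.69. Many of the 174 could hardly move. The setting with no filter on dim probes repeats the main value, and centring shifts each value by only 0.02. The mean over probes repeats the main value for genes with 1 measured probe. The count of 161 is therefore no measure of how steady the values are. The sign changed in 9 values of 7 genes. With the mean over probes PXN was at 0.14, COL14A1 at -0.67, ITGB1 at 0.81, COL18A1 at 0.11 and COL4A6 at 0.06. With quantile normalization ITGB1 was at 0.16, with normexp LAMB3 at -0.06, and LAMB2 was close to 0 with normexp and the authors' values. The adjusted trend count stayed at 0 in every setting run. Chains with a trend at an unadjusted p under 0.05 numbered 1 to 9 when 1 array was left out: 1 without the control, 3 without 1 h, 8 without 6 h and 9 without 24 h. Quantile normalization left 5 such chains, the filter on all 6 arrays 2, and normexp 1. The slide as a block was not run, since the files name no slide. No paired analysis was possible because each group holds 1 array. Brightness limits the 6 h array most, where 39 chains could be measured.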
